A study of Mus musculus with 4 samples.

Results

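The keratin genes of the mouse were examined in sorted hair follicle stem cells (HFSCs, the cells that renew the hair follicle) with and without the microRNA miR-205. A keratin gene was counted when the single gene symbol of its probe set was Krt followed by a number and at most one letter, which leaves out the Krtap and Krtdap genes. This gave 61 probe sets for 48 genes, of 45101 probe sets and 18193 named genes in all. A gene with several probe sets, as 9 keratins had, was represented by the one with the highest mean. Krt3, Krt9, Krt39, Krt40, Krt74, Krt85, Krt87 and Krt90 were not analysed here. The 48 genes were divided into 3 basal, 7 suprabasal, 7 inner root sheath, 6 companion layer and outer root sheath, 12 hair shaft and 5 simple epithelial keratins and 8 others.

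RNA from 4 samples was hybridised to 4 one-colour Affymetrix arrays, 2 labelled miR-205 KO and 2 labelled WT, all with the C57BL/6 background, from skin at postnatal day 4. The titles number the samples 1 and 2 in each genotype as biological replicates, so the arrays are called KO 1, KO 2, WT 1 and WT 2. The labels name neither the deleted allele nor a driver, and the treatment text attached to every sample describes another mouse system, the induction of miR-203 by doxycycline under K14-rtTA. Whether the replicates came from separate animals or pools is not stated, so any p-value describes only how far these 4 samples scattered. The cells were sorted by FACS, and the sort markers are not named. Mature miR-205-5p, from RefSeq (GRCm38.p6, chr1:193507503-193507524, minus strand), is printed here because its loss defines the comparison. Capitals mark the seed, bases 2 to 8, which pairs with target transcripts.

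mmu-miR-205-5p: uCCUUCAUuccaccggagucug

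Keratins are the intermediate filament proteins of epithelial cells. Each filament is built from pairs of one acidic type I and one basic type II keratin, and each epithelial layer makes its own pairs. Basal keratinocytes and the outer root sheath use Krt5 with Krt14, cells that leave the basal layer of the epidermis switch to Krt1 with Krt10, and the inner root sheath and the hair shaft have separate sets. Keratin genes lie in a type I cluster on chromosome 11 and a type II cluster on chromosome 15, where the type I gene Krt18 also lies, so that each chromosome held 24 of the 48 genes.

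Mature miR-205 was not measured, and its host transcript Mir205hg, a dim gene, was at 6.52 on KO 1, 6.13 on KO 2, 5.81 on WT 1 and 5.30 on WT 2; which part of the locus was deleted is not stated, so it does not check the labels. All values are log2 expression values, in which a difference of 1 is 2-fold, and every difference is the KO mean minus the WT mean with its moderated standard error (SE) from limma. Xist and the Y-linked gene Eif2s3y separated the genotypes, with differences of -7.88 and 6.63, so the arrays differ in sex-linked RNA as well as in genotype, and their parts in any keratin difference cannot be told apart. WT 1 stood apart in RNA of another cell type: 13 of 14 dermal fibroblast markers were highest on it. The summed linear level of that list was 51800 on WT 1 and 11000 on WT 2, against 27600 on KO 1 and 14500 on KO 2. Of 14 HFSC markers, 13 were above the median gene (6.88), while the surface marker Cd34, picked with its values known, ranged from 6.20 on WT 2 to 8.32 on WT 1, the order of the fibroblast markers. In such bulk samples, fewer cells of a type and less RNA per cell cannot be told apart.

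Krt1, Krt10 and Krt16 were the 3 keratins at least 1.5-fold higher in KO cells without overlap between the genotypes, and none was lower by that measure. These are 6.25% of the 48 keratins, against 0.236% of all 18193 genes for higher and 0.077% for lower values. The count of 3 rested on single arrays: it was 5 without KO 1, 3 without KO 2, 9 without WT 1 and 1 (Krt1) without WT 2, with 0.445%, 0.934%, 1.46% and 0.467% of all genes. For lower values it was 1 (Krt35) without KO 2 and 3 (Krt31, Krt33a and Krt35) without WT 2, with 0.242% and 1.71% of all genes. Without the size limit, both KO arrays were above both WT arrays for 8 keratins (Krt1, Krt5, Krt10, Krt14, Krt15, Krt16, Krt25 and Krt27), or 16.7%, against 8.2% of all genes. They were below for 1 keratin, Krt20, against 5.7% of all genes. The genotypes overlapped for 39 of the 48 keratins and for 15665 of all 18193 genes. No keratin passed the limma fit at an adjusted p under 0.05, which 0.011% of all genes did (Xist and Eif2s3y), and every keratin had an adjusted p of 1. An unadjusted p under 0.05 was reached by Krt1 and, at the border, by Krt16, or 4.17% of the keratins against 1.88% of all genes. Without single arrays the difference of Krt1 ran from 1.02 to 1.47, and that of Krt16 from 0.42 to 0.80.

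The median difference was 0.087 over the 48 keratins and 0.0082 over all genes. Of the keratins, 27 had a mean above the median gene. The remaining 21 are called dim, and the values used here come with no detection call to tell a dim value from background. Among the 27, 14 were higher in KO cells within both replicate numbers and 1, Krt7, was lower within both. These are 51.9% and 3.70%, against 30.4% and 17.3% of the 9096 genes above the median. In 15 of the 48 keratins, and in 7819 of all genes, at least 2 arrays had the same deposited value, which makes some SDs 0.

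**Figure D1:**
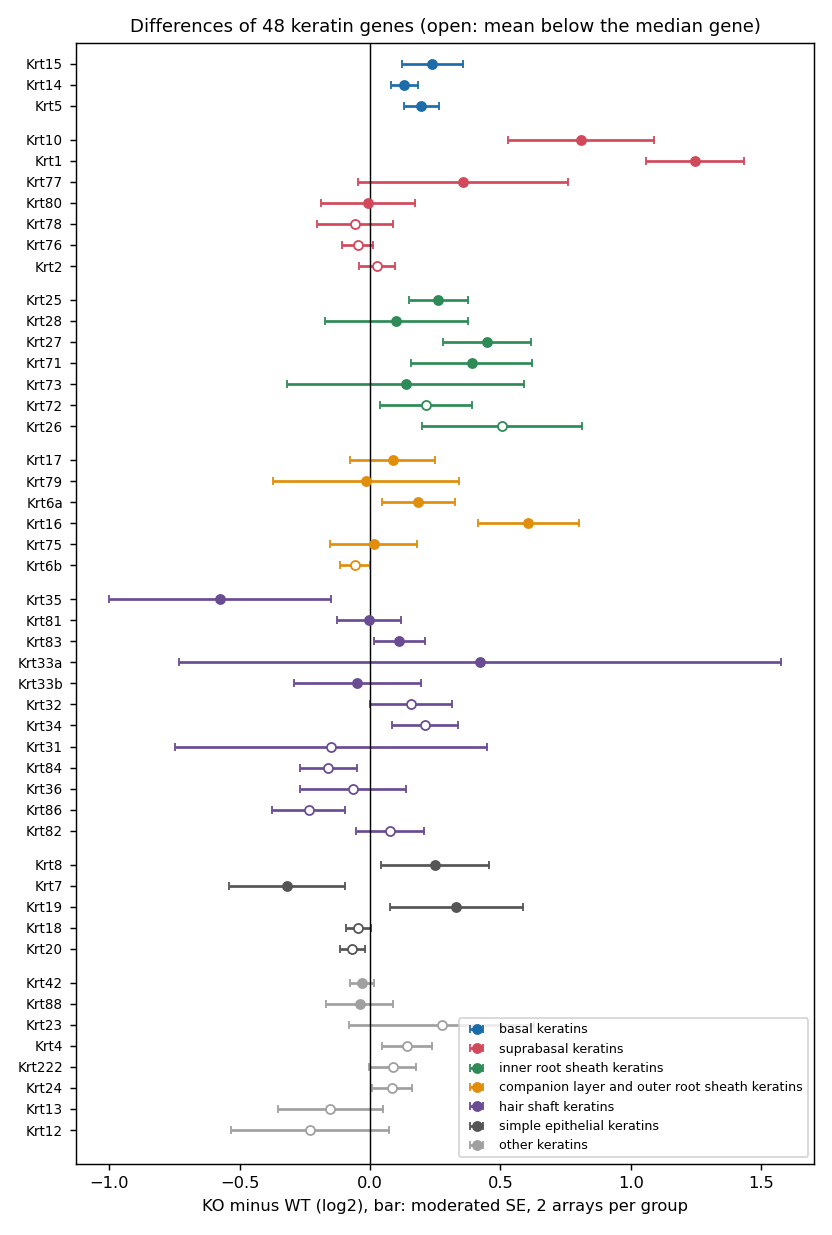
KO minus WT differences (log2, x axis) of the 48 keratin genes, ordered by group and by mean level, with bars of 1 moderated SE and 2 arrays per genotype; open points are genes with a mean below the median gene. Krt1, Krt10 and Krt16 lie farthest to the right among those whose groups do not overlap, all 7 inner root sheath keratins lie right of 0, and the hair shaft keratins lie on both sides.

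The 3 basal keratins had slightly higher values in KO cells, with no overlap between genotypes. Krt5, the type II keratin of basal keratinocytes, was at 13.76 on KO 1, 13.68 on KO 2, 13.58 on WT 1 and 13.47 on WT 2. Its type I partner Krt14 was at 13.65, 13.73, 13.54 and 13.57 on the same arrays. Krt15, a type I keratin that marks the bulge where adult HFSCs lie, was at 13.83, 14.05, 13.62 and 13.78. Both KO arrays were the higher ones each time, but in Krt15 the replicates of a genotype lay 0.22 and 0.16 apart, nearly as far as the genotypes. The differences were 0.20 (SE 0.068) for Krt5, 0.13 (SE 0.053) for Krt14 and 0.24 (SE 0.12) for Krt15, which are 1.15-fold, 1.10-fold and 1.18-fold. None passed (limma adjusted p = 1 for each). Without KO 2 the difference of Krt15 was 0.13.

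The 2 other Krt14 probe sets gave 0.13 and 0.11, so all 3 lay close together. The one used is of the x type, which Affymetrix assigns to probe sets that can also bind other transcripts, and 1 further probe set is annotated to both Krt14 and Krt17 and was not used for either (difference -0.015). Basal genes that are not keratins lay the same way: 8 of 9 had higher means in KO cells, with a median of 0.17. The share was 53.2% over all genes and 56.9% over genes above the median gene, where all 9 lay. The summed level of the 9 was 20500 and 18800 on the KO arrays and 18200 and 17500 on the WT arrays. Its part in the keratin values was not tested.

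Krt1 and Krt10, the pair of the spinous layer, had the largest differences among the keratins whose genotypes did not overlap. Krt1 was at 11.37 on KO 1 and 11.31 on KO 2, against 10.32 on WT 1 and 9.86 on WT 2. The KO arrays differed by 0.062 and lay about 1 log2 unit above the nearer WT array. The KO mean was 11.34 ± 0.044 and the WT mean 10.09 ± 0.32 (SD, n = 2 each), a difference of 1.25 (SE 0.19) or 2.37-fold, with a limma adjusted p = 1 over all genes. It ranged from 1.02 without WT 2 to 1.47 without WT 1.

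Krt10 was at 12.22 on KO 1, 12.21 on KO 2, 11.75 on WT 1 and 11.06 on WT 2. Its KO arrays differed by 0.011, while its WT arrays were 0.69 apart. The means were 12.22 ± 0.0078 and 11.41 ± 0.49 (SD, n = 2 each), and the difference of 0.81 (SE 0.28), or 1.75-fold, missed the threshold (limma adjusted p = 1). Its size depended on which WT array was used, at 0.47 without WT 2 and 1.15 without WT 1.

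The other suprabasal keratins did not share this. Krt77, a type II keratin of the epidermis, was at 9.68 on KO 1, 9.29 on KO 2, 9.59 on WT 1 and 8.67 on WT 2. It was low on WT 2 alone, the genotypes overlapped, and without WT 2 its difference went from 0.36 to -0.10. Krt80, a type II keratin of differentiating epithelia, was at 8.92, 8.53, 8.83 and 8.63, with a difference of -0.0078. Krt78, Krt76 and Krt2 were dim on these arrays, with values between 3.34 and 6.91 and differences of -0.058 to 0.028. The group median was 0.028, which became 0.58 when dim genes were left out, and it ran from -0.0024 without WT 2 to 0.19 without KO 2.

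Genes of the suprabasal epidermis that are not keratins were read beside Krt1 and Krt10. Of 17, 11 had a higher KO mean (64.7%, against 53.2% of all genes). For number 1 and number 2 alike, 6 were higher (35.3%, against 24.0%). The median of the 17 was 0.02. Their summed level was 13200 and 13500 on the KO arrays and 11600 and 12600 on the WT arrays. Krtdap, a secreted protein of differentiating keratinocytes, was the 1 member with an unadjusted p under 0.05 (5.88%, against 1.88% of all genes). It was at 11.56, 11.56, 11.06 and 11.33 on KO 1, KO 2, WT 1 and WT 2, so the genotypes did not overlap. Calm4, a calmodulin-like protein of differentiating epidermis, was at 10.30, 10.32, 10.03 and 9.28, with WT 2 lowest, as in Krt10. The genotypes did not overlap for Calm4 either, and its difference was 0.65 (SE 0.31). That difference was 0.27 for number 1 and 1.03 for number 2. Calm4 was the 1 member at least 1.5-fold higher in KO cells without overlap (5.88%, against 0.236% of all genes). Apart from Krtdap and Calm4, the genotypes overlapped for all 15 members. Casp14 and Tgm3, enzymes of the cornifying layers, differed by -0.15 and 0.75 and overlapped. Sbsn, Dmkn and Dsg1a, also of the suprabasal layers and chosen after their values were seen, differed by 0.062, -0.018 and 0.02. They do not stand for the list: its members not named here differed by -0.11 to 0.25. The part of other suprabasal RNA in the Krt1 and Krt10 values was not tested.

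**Figure D2:**
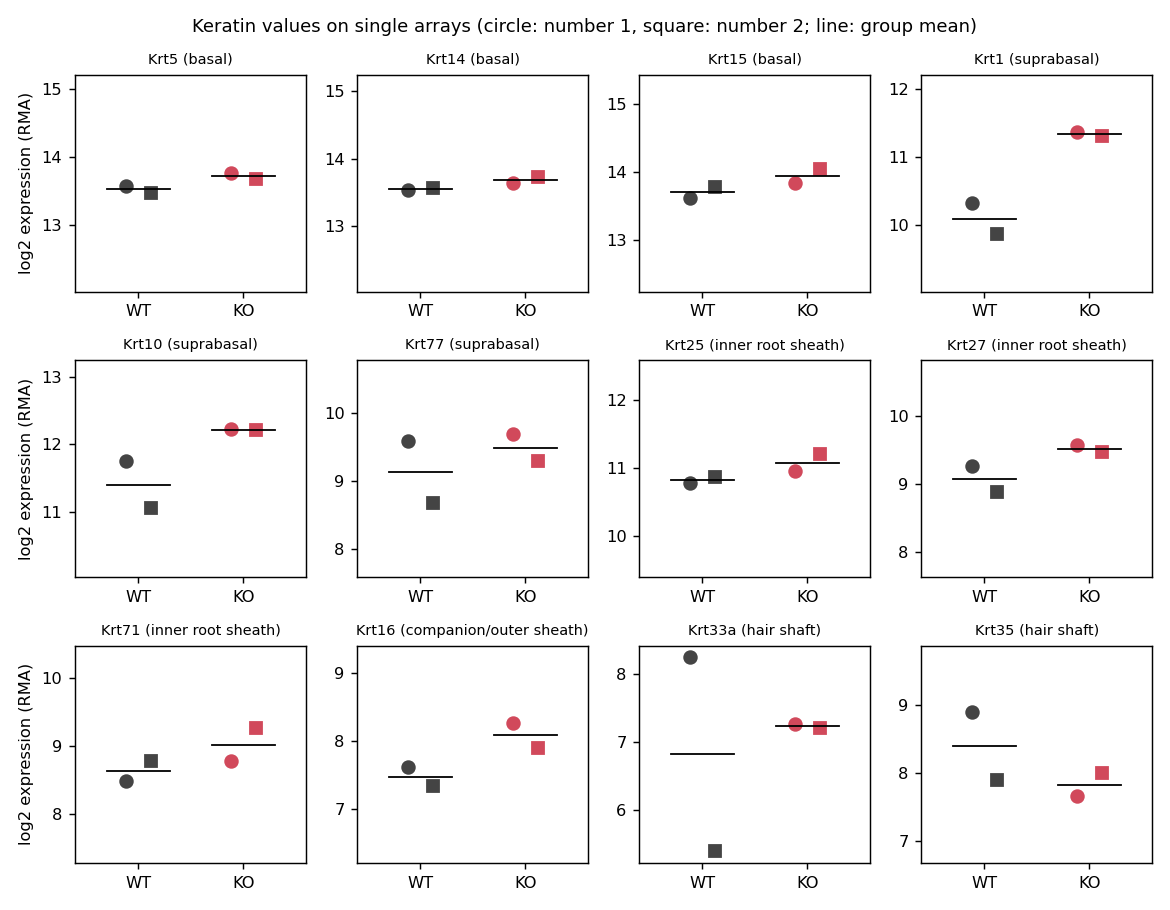
Log2 expression (y axis, of the same height in every panel) of 12 keratins on single arrays, WT at left and KO at right of each panel, with circles for number 1, squares for number 2 and a line at the group mean. Krt1, Krt5, Krt10, Krt14, Krt15, Krt16, Krt25 and Krt27 show both KO arrays above both WT arrays. Of these, Krt1, Krt10 and Krt16 are at least 1.5-fold higher in KO cells. Krt33a shows the WT arrays 2.86 apart on either side of the KO arrays.

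The inner root sheath is the tube of cells that moulds the growing hair, built from the type I keratins Krt25 to Krt28 and the type II keratins Krt71 to Krt73. All 7 had higher means in KO cells, against 53.2% of all genes, with a median of 0.26. Only Krt25, Krt27 and Krt71 were higher within both numbers (42.9%, against 24.0% of all genes). Krt25 was at 10.96 on KO 1, 11.21 on KO 2, 10.78 on WT 1 and 10.86 on WT 2, a difference of 0.26 (SE 0.11). Krt27 was at 9.57, 9.47, 9.27 and 8.87, a difference of 0.45 (SE 0.17) or 1.37-fold. In these 2 both KO arrays were the highest. Krt71 was at 8.78, 9.27, 8.49 and 8.78, with KO 1 and WT 2 at the same value and a difference of 0.39 (SE 0.23). None passed (limma adjusted p = 1 for each).

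Krt28 and Krt73 were highest on WT 1 and lowest on WT 2. Krt28 was at 9.92 on KO 1, 9.76 on KO 2, 10.07 on WT 1 and 9.41 on WT 2, and Krt73 was at 8.13, 8.30, 8.64 and 7.53. Their differences of 0.10 and 0.14 became -0.23 and -0.42 without WT 2, so the shared direction of the 7 rested on that array. Krt26 and Krt72 were dim. Krt72 had the same value, 6.28, on 3 arrays and 5.85 on WT 2, a difference of 0.21, and Krt26 was at 4.87, 5.20, 4.87 and 4.19, a difference of 0.51. WT 2 was the lowest array for 5 of the 7, against 22.1% of all genes. For number 1 the group median was 0.00, and for number 2 it was 0.49. Leaving out WT 1 or WT 2 gave a group median of 0.43 or 0.17.

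Markers of the inner root sheath and hair matrix that are not keratins had higher means in KO cells for 12 of 14 genes. These are 85.7%, against 53.2% of all genes, and the median of the 14 was 0.19. WT 2 was the lowest array for 9 (64.3%, against 22.1% of all genes). Tchh, trichohyalin, which cross-links with inner root sheath keratins, was at 9.76 on KO 1, 9.87 on KO 2, 9.48 on WT 1 and 9.68 on WT 2. Padi3, the enzyme that deiminates it, was at 7.39, 7.15, 7.27 and 6.62. WT 2 was the lowest array for Padi3 and WT 1 for Tchh. Dsc2, a desmosomal cadherin, differed by 0.39. Gata3, a transcription factor of the inner root sheath named here once its values were known, was at 10.13, 9.63, 9.98 and 9.60, so its genotypes overlapped. The summed level of the list was 4660 and 4010 on the KO arrays and 4430 and 3500 on the WT arrays. Its part in the keratin values was not tested.

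All 7 inner root sheath keratins had higher KO means, as had the 3 basal keratins, and their promoters are shown to set the larger of these groups side by side. They come from RefSeq (GRCm38.p6, all on the minus strand) and cover the 60 bases before the annotated start, with the word TATAAA, the core of a TATA box, in capitals. Promoters of Krt10, of the suprabasal pair, and of Krt5, of the basal pair, are printed beside them for comparison. The windows are chr11:99322952-99323011 for Krt25, chr11:99337966-99338025 for Krt26, chr11:99351119-99351178 for Krt27, chr11:99374904-99374963 for Krt28, chr15:101743098-101743157 for Krt71, chr15:101786521-101786580 for Krt72, chr15:101802361-101802420 for Krt73, chr11:99389365-99389424 for Krt10 and chr15:101712906-101712965 for Krt5.

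Krt25: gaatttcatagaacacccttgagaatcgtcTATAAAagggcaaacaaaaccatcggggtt
Krt26: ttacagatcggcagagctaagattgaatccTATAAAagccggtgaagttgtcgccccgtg
Krt27: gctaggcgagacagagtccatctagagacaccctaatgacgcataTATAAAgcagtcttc
Krt28: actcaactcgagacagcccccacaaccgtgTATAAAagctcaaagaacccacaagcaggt
Krt71: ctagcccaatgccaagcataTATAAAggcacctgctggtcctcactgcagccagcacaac
Krt72: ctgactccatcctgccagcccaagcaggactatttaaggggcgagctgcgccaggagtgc
Krt73: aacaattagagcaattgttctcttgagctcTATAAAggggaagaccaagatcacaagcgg
Krt10: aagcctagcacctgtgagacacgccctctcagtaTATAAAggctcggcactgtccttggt
Krt5: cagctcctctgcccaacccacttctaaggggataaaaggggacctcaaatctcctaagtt

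The table gave windows for 32 of the 48 keratin genes, and not for Krt1 or Krt16. The word TATAAA began 30 bases before the start in Krt25, Krt26, Krt28 and Krt73, 40 in Krt71, 26 in Krt10 and 15 in Krt27, and was not in the printed stretch of Krt72 or Krt5. The whole window ran from 250 bases before to 50 after the start. TATAAA was on either strand in all 7 inner root sheath windows, 18 of the 33 keratin windows (54.6%) and 13.6% of all 32851 windows. On the gene's own strand it was in 6 of those 7, 16 of the 33 (48.5%) and 8.32% of all. The binding word of AP-2, GCCNNNGGC on both strands, was in 12.1% of keratin windows and 16.6% of all, and CTTTGA, a LEF1/TCF core on both strands, in 21.2% and 16.0%. 4 of the 7 keratin windows with CTTTGA belong to the hair shaft keratins Krt31, Krt32, Krt33b and Krt34. These letters describe the windows and were not set against the array values.

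Krt16, the type I keratin of the outer root sheath and of wounded epidermis, was at 8.27 on KO 1, 7.89 on KO 2, 7.61 on WT 1 and 7.34 on WT 2. Number 1 was above number 2 in both genotypes, and both KO arrays were above both WT arrays. The means were 8.08 ± 0.27 and 7.48 ± 0.20 (SD, n = 2 each), and the difference of 0.61 (SE 0.19), or 1.52-fold, was short of the threshold (limma adjusted p = 1). It was 0.66 for number 1 and 0.56 for number 2. The difference of Krt16 was 0.42 without KO 1 and 0.47 without WT 2, under the 1.5-fold limit of 0.585. Its type II partner Krt6a was at 8.01, 7.76, 7.81 and 7.59 and had a difference of 0.19 (SE 0.14), with KO 2 below WT 1. The 2 other Krt6a probe sets gave -0.007 and 0.049. Krt6b was dim, between 4.65 and 4.77.

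Krt17, the type I keratin of the outer root sheath, was at 12.59 on KO 1, 12.92 on KO 2, 12.55 on WT 1 and 12.78 on WT 2. Krt79, a keratin of the upper follicle and hair canal, was at 11.64, 12.36, 11.76 and 12.27. Both followed the replicate number: Krt79 was 0.71 higher on KO 2 than on KO 1 and 0.51 higher on WT 2 than on WT 1, while its genotypes differed by -0.015 (SE 0.36). The difference of Krt17 was 0.087 (SE 0.16), and its other probe set gave 0.089. Krt75, the type II keratin of the companion layer, was at 7.72, 7.82, 7.95 and 7.56, with a difference of 0.015. Apart from Krt16, every member of this group overlapped between the genotypes. The group median was 0.051, and it was -0.019 without KO 2 and 0.16 without KO 1.

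Keratins of the hair shaft are made in the matrix and cortex, and 11 of the 12, all but Krt84, differed more between the WT arrays than between the genotype means, against 61.7% of all genes. Krt33a, a type I cortex keratin, was at 7.27 on KO 1, 7.21 on KO 2, 8.25 on WT 1 and 5.39 on WT 2. The KO arrays lay 0.058 apart between WT arrays that lay 2.86 apart, so the difference of 0.42 (SE 1.15) changed to -1.01 without WT 2 and 1.85 without WT 1. Krt35, the type I keratin that appears first in the matrix, was at 7.66, 8.0, 8.90 and 7.91, high on WT 1 alone. Its difference of -0.57 (SE 0.43) was the lowest among the keratins, and it was -0.079 without WT 1.

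Krt31, a type I cortex keratin that is dim here, was at 6.49 on KO 1, 6.07 on KO 2, 7.14 on WT 1 and 5.73 on WT 2, and Krt33b was at 6.90, 6.90, 7.25 and 6.65. Both repeated the order of Krt33a on the WT arrays, with differences of -0.15 and -0.048. The type II keratins Krt81 and Krt83 varied little, at 7.43, 7.71, 7.59 and 7.56 and at 7.04, 7.20, 7.09 and 6.94, with differences of -0.0056 and 0.11. The remaining members, Krt32, Krt34, Krt36, Krt82, Krt84 and Krt86, were dim and lay between 3.62 and 6.93, with differences of -0.24 to 0.21.

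All 12 hair shaft keratins overlapped between the genotypes, as did 15665 of all 18193 genes. None of the 12 was higher in KO cells within both numbers, against 24.0% of all genes. WT 1 alone was highest for 8 of the 12, against 17.4% of all genes, and WT 2 alone was lowest for 7, against 22.1%. The group median was -0.027, but -0.21 for number 1 and 0.24 for number 2. Leaving out WT 1 gave 0.21 and leaving out WT 2 gave -0.20. The fibroblast markers, described above, were likewise highest on WT 1 (13 of 14) and lowest on WT 2 (11 of 14). Their part in the hair shaft values was not tested.

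**Figure D3:**
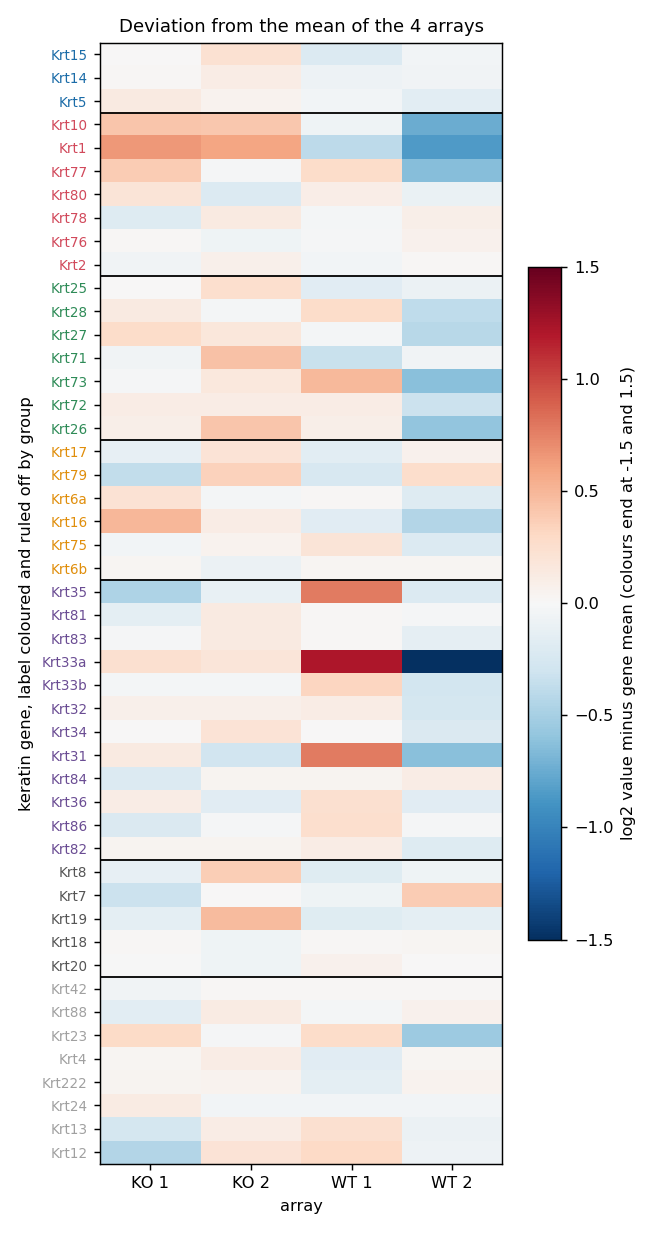
Each keratin's log2 value minus its mean over the 4 arrays (colour, red above and blue below), with arrays in columns and the 48 genes in rows ruled off by group. Krt1 and Krt10 are red on both KO arrays, and Krt31, Krt33a and Krt35 are reddest on WT 1, which is the highest array for 8 of the 12 hair shaft keratins.

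Genes of keratin-associated proteins, which embed the hair keratins in the shaft, were read beside them. Of 38 measured, 5 lay above the median gene. WT 1 alone was highest for 10 (26.3%, against 17.4% of all genes). WT 2 alone was lowest for 17 (44.7%, against 22.1%). Krtap8-1 was at 8.72 on KO 1, 8.37 on KO 2, 9.24 on WT 1 and 7.20 on WT 2, and Krtap11-1 was at 7.21, 6.82, 7.81 and 6.03, both in the order of Krt33a and chosen after their values were seen. Krtap17-1 differed from them, at 9.60, 9.39, 8.97 and 8.92, with no overlap and a difference of 0.55 (SE 0.096, limma adjusted p = 1). It was the 1 member of the list with an unadjusted p under 0.05 (2.63%, against 1.88% of all genes). The median of the 38 was 0.015. In KO cells 1 was higher and 7 lower within both numbers (2.63% and 18.4%, against 24.0% and 16.8% of all genes). Both KO arrays were below both WT arrays for 5 members, all dim (13.2%, against 5.7% of all genes). They were above for Krtap17-1 alone (2.63%, against 8.2%).

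Krt8, the type II keratin of simple epithelia and Merkel cells, was at 8.10 on KO 1, 8.59 on KO 2, 8.04 on WT 1 and 8.16 on WT 2, and Krt19, a type I keratin of simple epithelia and of the bulge, was at 7.24, 7.87, 7.21 and 7.24. Both were high on KO 2 alone. Their differences of 0.25 (SE 0.21) and 0.33 (SE 0.26) were 0.0033 and 0.017 without KO 2. The 2 other Krt8 probe sets, both of the x type, gave 0.13 and 0.14. Krt18, the type I partner of Krt8, was dim and lay between 6.62 and 6.71. Values this dim cannot tell whether it followed Krt8. Krt7, a type II keratin of glands and simple epithelia, was at 7.09, 7.41, 7.35 and 7.79, with differences of -0.255 for number 1 and -0.38 for number 2. Its genotypes overlapped, and its difference was -0.32 (SE 0.22). Krt20, a keratin of Merkel cells and gut, was the 1 keratin with both KO values below the WT values, at 4.75, 4.70, 4.82 and 4.77, a dim gene with a difference of -0.069. Merkel cell markers other than keratins were all below the median gene (9 genes), with summed levels of 246 and 306 on the KO arrays and 263 and 298 on the WT arrays, higher for number 2 in both genotypes.

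Krt42, a mouse type I keratin encoded beside Krt17, was at 8.85 on KO 1 and at 8.91 on the 3 other arrays, from a probe set of the x type. Krt88 was at 6.85, 7.14, 6.98 and 7.08 on KO 1, KO 2, WT 1 and WT 2. Their differences were -0.033 and -0.039. Krt4, Krt12, Krt13, Krt23, Krt24 and Krt222 were dim, with values between 3.49 and 6.26 and differences of -0.23 to 0.27, and all overlapped between genotypes. These include Krt4 and Krt13, the keratin pair of the oral and oesophageal lining, and Krt12 of the cornea.

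By type, the 25 type I keratins had a median difference of 0.10 and the 23 type II keratins 0.028. In the order of the GRCm38.p6 gene table, Krt25, Krt26, Krt27, Krt28 and Krt10 follow one another among the keratin genes of chromosome 11, and all 5 had higher means in KO cells. On chromosome 15, the keratin genes around Krt1 are Krt2 at one side and Krt77 at the other, with differences of 0.028 and 0.36 against 1.25 for Krt1. Krt16 lies between Krt14 and Krt17, at 0.13 and 0.087 against 0.61. Krt1 and Krt10, which form filaments together, thus lie on different chromosomes.

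**Figure D4:**
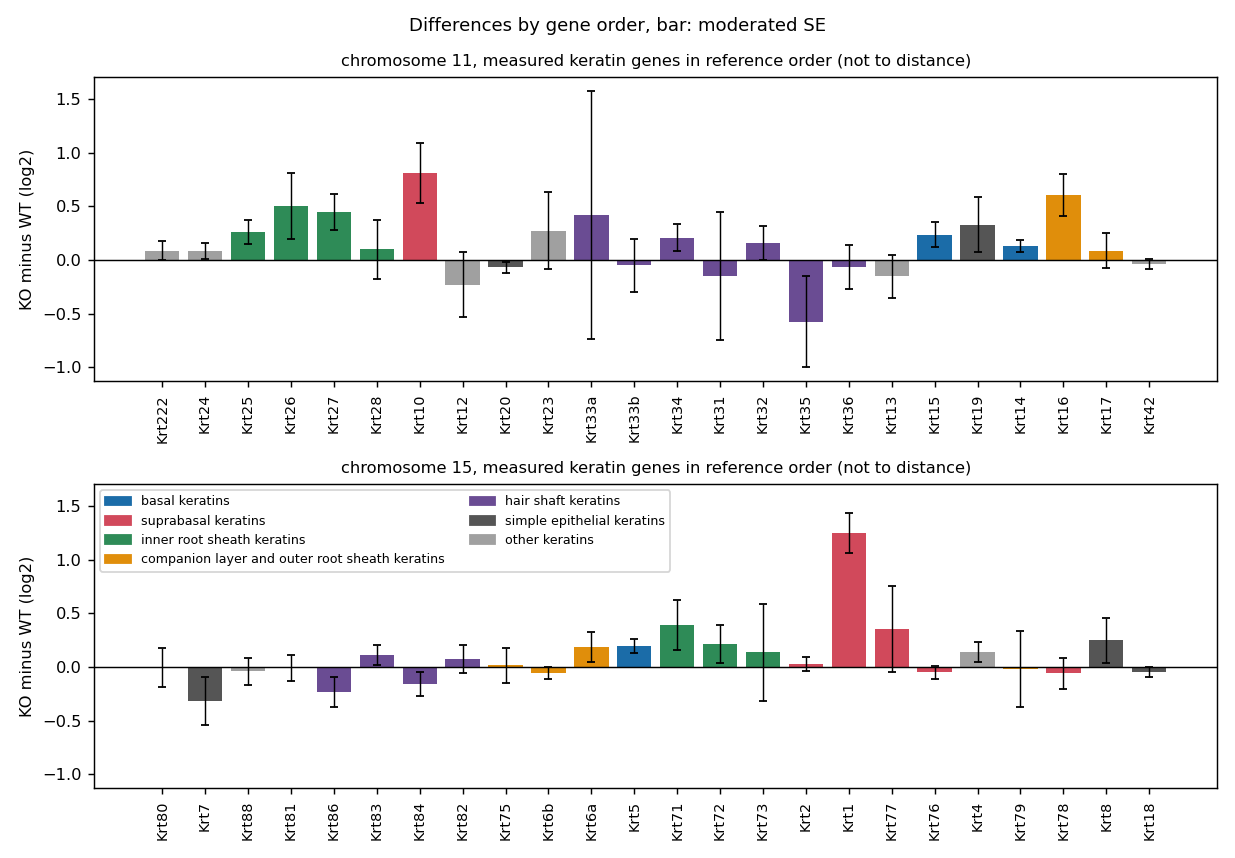
KO minus WT differences (log2, bars with 1 moderated SE) of the measured keratin genes in reference gene order on chromosome 11 (top) and chromosome 15 (bottom), coloured by keratin group and not spaced by distance. Krt10 stands at 0.81 beside the inner root sheath keratins on chromosome 11, and Krt1 at 1.25 between Krt2 and Krt77 on chromosome 15.

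Proteins that join keratins to junctions or bind them were read as a list of 13. Their median was 0.081, and 12 of the 13 lay above the median gene. Higher means in KO cells were found for 12 (92.3%, against 53.2% of all genes and 56.9% of those above the median gene). Within both numbers 9 were higher (69.2%, against 24.0% and 30.4%). None of the 13 had an unadjusted p under 0.05, which 1.88% of all genes had. Dst, a plakin that anchors Krt5 and Krt14 filaments at hemidesmosomes, was at 12.09 on KO 1, 11.94 on KO 2, 11.73 on WT 1 and 11.89 on WT 2, a difference of 0.21 (SE 0.097). Evpl, Fbf1 and Fam83h differed by 0.078, 0.17 and 0.097. Dsp, the desmosomal plakin that all keratinocyte keratins attach to, chosen after its values were seen, differed by 0.095 (SE 0.10).

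Of 19 regulators of keratin genes, 17 lay above the median gene. Higher means in KO cells were found for 14 (73.7%, against 53.2% of all genes and 56.9% of those above the median gene). Within both numbers 7 were higher (36.8%, against 24.0% and 30.4%). The median of the 19 was 0.056, and none had an unadjusted p under 0.05, which 1.88% of all genes had. Trp63, which drives the basal keratins, was at 12.21 on KO 1, 12.03 on KO 2, 12.09 on WT 1 and 11.88 on WT 2, with number 1 above number 2 in both genotypes and a difference of 0.13 (SE 0.12). The AP-2 factors Tfap2a and Tfap2c differed by 0.17 and -0.19, and Sp1 by -0.11 (SE 0.04), with both KO values the lowest. Hoxc13, the regulator of hair shaft keratins, picked with its values known, was at 8.41, 8.46, 8.66 and 8.43, highest on WT 1 as 8 of the 12 hair shaft keratins were.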

How the data were processed

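The authors deposited log2 expression values made with RMA, per the submitters' processing notes, for 45101 probe sets on 4 arrays. For the RMA version, probe set definition and genome build, the sources used here give nothing. RMA sets all arrays to one distribution, so shifts common to all genes are removed, and differences of dim probe sets are understated.

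Gene symbols came from GEO's platform annotation and were checked by gene identifier against the RefSeq table of GRCm38.p6, in which 34741 of 34945 probe sets with 1 symbol, including all 48 keratins, matched. Control probe sets were left out. A linear model without covariates was fitted over all 18193 genes by lmFit and eBayes of limma 3.58.1 (R 4.3.3; two-sided), KO against WT, with Benjamini-Hochberg adjustment and a threshold of 0.05. The fit was run on simulated data with noise drawn independently for each array, which leaves out the shared deviation of same-numbered arrays. No result here rests on that run. With 2 arrays a group, an exact permutation test cannot go below 0.333, so none was used.

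Keratins with a mean above the median gene, an unadjusted p under 0.05 or a range of at least 1 over the arrays are described singly. For other lists, up to 4 genes of smallest p are named, and any others are marked as picked with their values known. Krt18, Krt20 and Krt72, dim keratins outside this rule, were added after their values were seen. The members and lists were chosen with earlier results of these data known. Alternatives were other normalizations, a filter on dim genes, other uses of probe sets, other eBayes settings, other thresholds, a replicate block, and leaving out each array.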

Additional observations from a re-analysis of the deposited data

How the results depend on the processing

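No keratin passed an adjusted p of 0.05 in any alternative, nor of 0.1. The count with an unadjusted p under 0.05 was 2. It was 4 with quantile normalization again (Krt10 and Krt27 added, 1.62% of all genes). It was 3 with median centring (1.56%) or without dim genes (1.65%), and 1 with every probe set by itself (2.06% of all probe sets). Counts at this p without single arrays are not given, because such a fit leaves 1 array in a genotype. The count is therefore not shown to be stable to leaving out an array. With a replicate block it was 9 (Krt1, Krt5, Krt6a, Krt7, Krt15, Krt16, Krt25, Krt27 and Krt71), against 4.83% of all genes. Same-numbered arrays deviated together (r = 0.56 across all genes and 0.37 across the 48 keratins), but the labels do not say what the numbers mark. The count at least 1.5-fold higher without overlap was 3, or 1 at 2-fold (Krt1, against 0.0385% of all genes), and ran from 1 to 9 without single arrays (9 without WT 1, 1 without WT 2). That for lower values ran from 0 to 3 (3 without WT 2).

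Group medians moved beyond the replicate spread as follows. The basal median was 0.13 with every probe set, and 0.13 to 0.17 without single arrays. Without dim genes the suprabasal median was 0.58, the simple epithelial 0.25 and that of other keratins -0.036. With every probe set the simple epithelial median was 0.13. That of other keratins was -0.0036 with the mean of probe sets, and -0.012 to 0.091 without single arrays.

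Of 32 single differences, 18 kept their sign whichever array was left out, and 2 became exactly 0 (Krt72 without WT 2 and Krt42 without KO 1). The other 12 ran from -0.10 to 0.81 (Krt77), -0.20 to 0.19 (Krt80), -0.23 to 0.43 (Krt28), -0.42 to 0.69 (Krt73), -0.076 to 0.25 (Krt17), -0.37 to 0.34 (Krt79), -0.18 to 0.21 (Krt75), -0.15 to 0.14 (Krt81), -1.01 to 1.85 (Krt33a), -0.35 to 0.25 (Krt33b), -0.86 to 0.56 (Krt31) and -0.18 to 0.10 (Krt88). Signs also turned for Krt80 (0.00084) and Krt81 (0.0031) with median centring, Krt79 (0.0085) with quantile normalization and Krt42 (0.0018) with the mean of probe sets. The causes were not tested. With 4 arrays, differences within the scatter of one genotype were not detectable.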
